A study of Homo sapiens with 3 samples.

Results

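The nuclear genes for subunits of the respiratory chain were followed in total RNA sequencing of CaSki, a widely used cell line derived from a cervical carcinoma, in 3 libraries. Members were all gene symbols that match the naming patterns of complexes I to V (NDUFA, NDUFB, NDUFC, NDUFS and NDUFV with a number, SDHA to SDHD, UQCR, COX4 to COX8 and ATP5). The patterns took 84 of the 23277 symbols and used no measured value, but were chosen with earlier results of these data known. Of these 84, 37 belong by name to complex I, 4 to complex II, 10 to complex III, 16 to complex IV and 17 to complex V.

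The series set cells with added NANOG, a homeobox transcription factor of pluripotent cells, against cells without it, and NANOG cells with the histone deacetylase HDAC1 depleted against those without depletion. One library came from cells with FLAG-tagged NANOG in the pMSCV retroviral vector and an siRNA against HDAC1 (NANOG/siHDAC1). Another came from cells with the same NANOG vector and a control siRNA against GFP (NANOG/siGFP), and the last from cells with the empty pMSCV vector and the GFP siRNA (empty/siGFP). All 3 groups share the CaSki background, a retroviral vector and an siRNA transfection. Whether the transduced cells were a pool or a clone is not given in the sources used here.

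With 1 library per group there were no replicates, so every difference below compares single libraries and carries neither an error nor a test. Values are FPKM, fragment counts scaled by transcript length and library size, so that levels are per length and may be compared between genes. The number of fragments behind a value is unknown, and total FPKM was 600749 in NANOG/siHDAC1, 681947 in NANOG/siGFP and 660990 in empty/siGFP cells, or 504654, 524356 and 520982 in the same libraries without small RNA symbols. The most frequent ratio among 2158 symbols under 0.3 FPKM was 0.9999 for NANOG/siHDAC1 over NANOG/siGFP and 0.982 for NANOG/siGFP over empty/siGFP, but only 15% and 15.1% of the symbols lay within 0.3% of it. NANOG stood at 325 FPKM in NANOG/siHDAC1, 298 FPKM in NANOG/siGFP and 0.0357 FPKM in empty/siGFP cells, as its vector labels say. HDAC1 stood at 12.8 FPKM in NANOG/siHDAC1, 108 FPKM in NANOG/siGFP and 19.0 FPKM in empty/siGFP cells, so that it was lowest under its siRNA (-2.98 in log2(FPKM + 1) against NANOG/siGFP), but NANOG/siGFP also lay above empty/siGFP by 2.45. The NANOG/siGFP library therefore stands apart in the targeted gene. Most results that lean on it are given below also as NANOG/siHDAC1 against empty/siGFP. Those libraries differ in the siRNA as well as in NANOG, so that comparison does not isolate NANOG. Of the 7 epithelial markers, all but TP63 passed 1 FPKM in every library. TP63 stood at 0.785 FPKM in NANOG/siGFP cells. Summed levels of the 7 were 3702 FPKM in NANOG/siHDAC1, 4711 FPKM in NANOG/siGFP and 4019 FPKM in empty/siGFP cells. These sums hide opposite directions. Against empty/siGFP, 3 of the markers were higher and 4 lower in NANOG/siGFP, and likewise 3 and 4 in NANOG/siHDAC1. Of the 5 leukocyte, 3 endothelial and 3 fibroblast markers, only CD68 passed 1 FPKM in any library. CD68 stood at 53.5 FPKM in NANOG/siHDAC1, 61.2 FPKM in NANOG/siGFP and 50.7 FPKM in empty/siGFP cells. The fibroblast marker COL1A2 reached 0.948 FPKM in NANOG/siGFP cells, above TP63 in that library.

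The respiratory chain moves electrons from NADH (complex I) and succinate (complex II) through coenzyme Q, complex III and cytochrome c to oxygen at complex IV. Complexes I, III and IV pump protons, and complex V, the ATP synthase, uses the gradient to make ATP. Most subunits are encoded in the nucleus, and the rest in mitochondrial DNA. Many of the nuclear genes are known targets of NRF1 (nuclear respiratory factor 1), of the ETS-family factor GABP and of YY1. None of the mitochondrially encoded symbols searched for was matched in the files, so those subunits were not analysed here.

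Promoter sequences of RefSeq (GRCh38.p14, from 250 bases before to 50 after the annotated start) were found for 66 of the 84 members. The core of the NRF1 site, GCGCANGCG, searched on both strands, was in 21 of 66 member promoters (31.8%), against 8.05% of all 27305 promoters and 16% of the promoters of genes past the expression filter described below. The ETS core CCGGAAG was in 19 of 66 (28.8%), against 10.7% of all promoters and 20.7% of those of expressed genes. A YY1 core, CCATNTT, was in 31 of 66 (47%), against 15.9% and 16.5%. Matches of different motifs overlapped in 0 of the 66 promoters. At least 1 of the 3 motifs was in 46 of 66 member promoters (69.7%), against 30.2% of all promoters and 43.5% of those of expressed genes. A match describes the letters in this window and is not evidence of binding.

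The 250 bases before the start of 4 members are shown because these members carry the contrasts below. NDUFA9 differed most between NANOG/siGFP and empty/siGFP cells, ATP5G1 was at least 1.5-fold higher in both NANOG libraries on the FPKM scale, ATP5I followed it within complex V for NANOG/siGFP against empty/siGFP, and SDHA went the other way. Capitals mark NRF1 core matches on either strand, and the sequences read from 5′ to 3′ toward the gene.
NDUFA9, chr12:4648864-4649113, plus strand: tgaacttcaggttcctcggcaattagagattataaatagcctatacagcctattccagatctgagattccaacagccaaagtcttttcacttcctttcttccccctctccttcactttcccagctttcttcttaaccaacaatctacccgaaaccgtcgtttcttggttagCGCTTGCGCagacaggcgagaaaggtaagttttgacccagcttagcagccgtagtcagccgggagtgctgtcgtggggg
ATP5G1, chr17:48892537-48892786, plus strand: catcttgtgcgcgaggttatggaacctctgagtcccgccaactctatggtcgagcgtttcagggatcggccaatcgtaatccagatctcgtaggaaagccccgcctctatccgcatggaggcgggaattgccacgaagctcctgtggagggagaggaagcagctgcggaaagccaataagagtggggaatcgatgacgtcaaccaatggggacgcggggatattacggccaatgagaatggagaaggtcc
ATP5I, chr4:674277-674526, minus strand: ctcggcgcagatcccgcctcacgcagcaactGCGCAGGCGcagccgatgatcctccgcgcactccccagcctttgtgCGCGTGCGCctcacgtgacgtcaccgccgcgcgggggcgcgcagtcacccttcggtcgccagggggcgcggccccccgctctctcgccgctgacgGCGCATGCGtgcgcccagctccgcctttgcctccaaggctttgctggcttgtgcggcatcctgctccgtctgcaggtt
SDHA, chr5:218070-218319, plus strand: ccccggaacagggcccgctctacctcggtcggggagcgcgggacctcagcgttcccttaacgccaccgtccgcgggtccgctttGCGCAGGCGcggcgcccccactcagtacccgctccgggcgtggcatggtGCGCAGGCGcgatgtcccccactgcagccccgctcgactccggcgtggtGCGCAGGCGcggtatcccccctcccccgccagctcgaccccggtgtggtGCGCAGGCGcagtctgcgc

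SDHA, a member with a lower level in both NANOG libraries and the highest level in its complex, held 4 NRF1 core matches, which begin 166, 117, 68 and 19 bases before the start. ATP5I held 3 and NDUFA9 held 1 in the same window. ATP5G1 held 0, and none of the ETS or YY1 cores was found in its 300 bases either. Among expressed members, the 20 with an NRF1 core had a median difference of 0.15 for NANOG/siGFP against empty/siGFP, and the 44 without had 0.23. For the ETS core the medians were 0.16 with (19 members) and 0.23 without (45 members), and for the YY1 core 0.24 with (31 members) and 0.18 without (33 members). For NANOG/siHDAC1 against empty/siGFP, the same members had medians of 0.15 with and 0.18 without the NRF1 core, 0.174 with and 0.167 without the ETS core, and 0.17 with and 0.16 without the YY1 core. The gaps were smaller in that comparison and that for the ETS core had the opposite sign, so no difference by motif is read.

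Levels spanned a wide range within each complex. After a filter at a mean of 1 FPKM over the 3 libraries, 77 of the 84 members and 11398 genes in all remained. The filter uses all 3 libraries together, and 0 members combined an exact 0 in any library with 5 FPKM elsewhere. Median levels of the 77 were 90.8 FPKM in NANOG/siHDAC1, 100.9 FPKM in NANOG/siGFP and 76.8 FPKM in empty/siGFP cells, against 11.99 FPKM in NANOG/siHDAC1, 11.9 FPKM in NANOG/siGFP and 12.2 FPKM in empty/siGFP cells over all genes. Complex IV had the highest median, at 309 FPKM in NANOG/siHDAC1, 319 FPKM in NANOG/siGFP and 282 FPKM in empty/siGFP cells. Complex V followed at 140.3 FPKM in NANOG/siHDAC1, 146 FPKM in NANOG/siGFP and 129 FPKM in empty/siGFP cells. Complexes I, II and III lay lower and close together, at 73.3, 71.5 and 66.7 FPKM in NANOG/siHDAC1 cells, 76.9, 76.8 and 65.5 FPKM in NANOG/siGFP cells and 61.8, 61.999 and 62.3 FPKM in empty/siGFP cells. Within complex I the highest member was NDUFB9, an accessory subunit of the membrane arm, at 434 FPKM in NANOG/siHDAC1, 457 FPKM in NANOG/siGFP and 345 FPKM in empty/siGFP cells. The lowest was the accessory subunit NDUFA10, at 15.2 FPKM in NANOG/siHDAC1, 15.7 FPKM in NANOG/siGFP and 13.5 FPKM in empty/siGFP cells. Across the 77 members, longer transcripts had lower mean levels, with a Spearman's rho of -0.41 over the 77 genes, which all come from the same 3 libraries. Short transcripts make FPKM less certain, and the median member was 930 bases long against 2933 bases over all genes with a length.

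**Figure D1:**
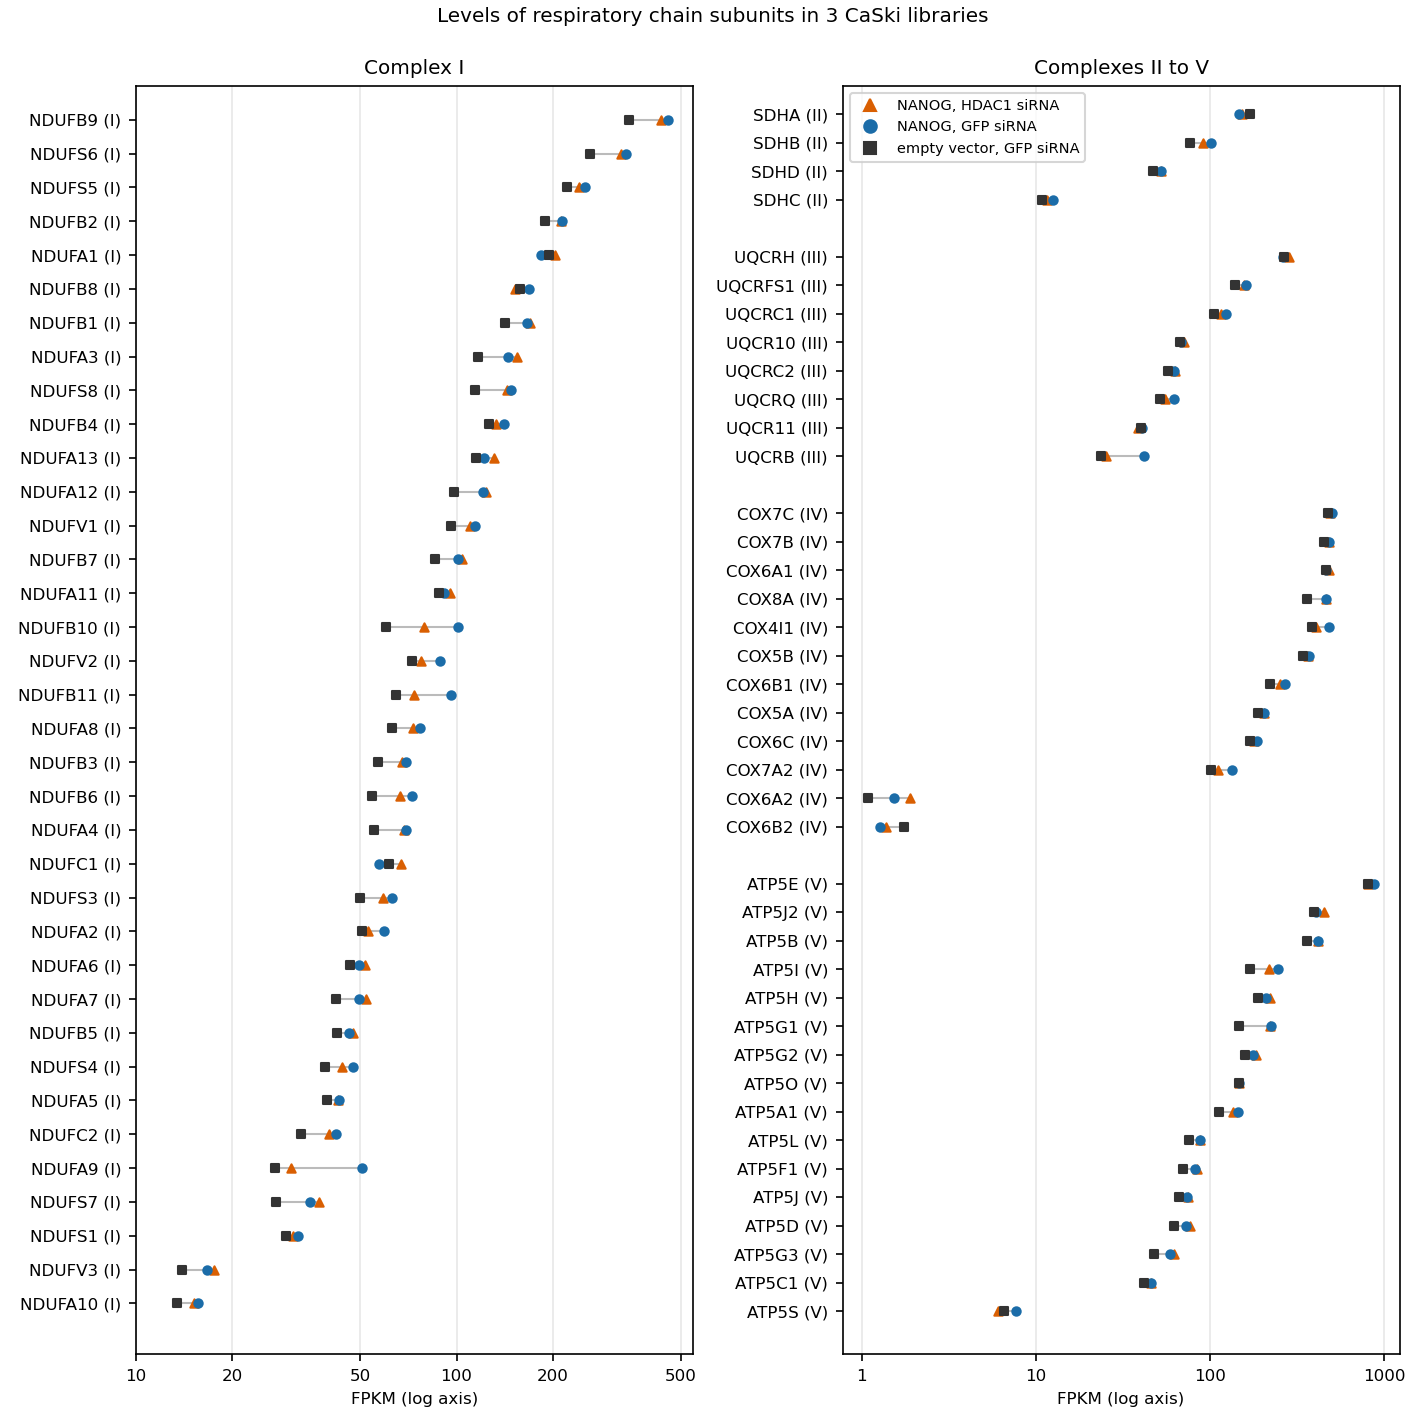
FPKM of respiratory chain subunits past the filter (all but 1 of the 77), on a log axis, sorted by mean level within each complex (in brackets). Each point is 1 library and the grey line joins a gene's lowest and highest library. The empty/siGFP square is the leftmost point for most members shown, and levels run from 1.08 FPKM for COX6A2 in empty/siGFP cells to 877 FPKM for ATP5E in NANOG/siGFP cells.

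The comparison of NANOG/siGFP with empty/siGFP cells asked what differs with the NANOG vector. HDAC1 also differed between these libraries, by 2.45 as given above, so this comparison does not isolate NANOG either. Subunit transcripts were slightly higher in NANOG/siGFP cells almost throughout, by a small amount per gene. Of the 77 members, 70 were higher and 7 lower, where 49.2% of all 11398 genes were higher and 50.8% lower. The median difference was 0.22 in log2(FPKM + 1), or 1.16-fold, beside -0.0060 over all genes. At least 1.2-fold higher were 29 members (37.7%) and at least 1.2-fold lower was 1, against 17.6% and 19.9% of all genes. At least 1.5-fold higher were 4 members and lower 0, against 3.47% and 5.25% of all genes, so that the members' share past 1.5-fold (5.19%) lay near the background. The members differed from all genes in the share that was higher (90.9%) more than in the size of single differences.

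The comparison of NANOG/siHDAC1 with empty/siGFP cells, which differ in NANOG and in the siRNA, gave a like picture without the NANOG/siGFP library. Again 70 members were higher and 7 lower, against 49.8% and 50.2% of all genes, with a median of 0.17 beside -0.00087 over all genes. At least 1.2-fold higher were 20 members (26%) and lower 0, against 11.8% and 14.8% of all genes. Past 1.5-fold stood 1 member, ATP5G1, on the higher side and 0 on the lower, against 1.78% and 3.44%. The count past 1.5-fold was 0 once medians of genes of like length were subtracted, and 2 under TPM (each library rescaled to the same sum) or with a pseudocount of 0.1 FPKM. Both comparisons use the same empty/siGFP library, so a feature of that library alone would enter both alike. The empty/siGFP library was the lowest of the 3 for 66 of the 77 members (85.7%), against 38.7% of all genes, and the highest for 3 (3.9%), against 39.7%. Both NANOG libraries lay at least 1.2-fold above it for 16 members (20.8%), against 7.88% of all genes. Summed over the 77 members, FPKM was 11652 in NANOG/siHDAC1, 11949 in NANOG/siGFP and 10404 in empty/siGFP cells, or 2.31% in NANOG/siHDAC1, 2.28% in NANOG/siGFP and 2.00% in empty/siGFP cells of the sum over all genes past the filter. FPKM are relative to the library, so more transcript per cell and less of other RNA cannot be told apart, nor can a change in every cell and one in some cells.

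In NANOG cells, HDAC1 siRNA against GFP siRNA came with small differences in most subunits. Of the 77 members, 31 were higher and 46 lower, against 53.4% and 46.6% of all genes, with a median of -0.017 beside 0.014. The direction against 0 depended on the scaling. Under TPM 69 members were higher with a median of 0.17, beside 0.18 over all genes, and under TPM without small RNA symbols 48 were higher with a median of 0.038, beside 0.067. Relative to the median of all genes, the members' median was -0.031 as deposited, -0.018 under TPM and -0.029 under TPM without small RNA symbols. At least 1.2-fold higher were 0 members and lower 6, against 8.24% and 9.04% of all genes. Past 1.5-fold were 0 higher and 2 lower, NDUFA9 and UQCRB, against 0.676% and 1.43%. Under TPM 0 members were past 1.5-fold, and 2 under TPM without small RNA symbols. Against that median, 27 members lay above and 50 below in this comparison, while 72 lay above for NANOG/siGFP against empty/siGFP and 70 for NANOG/siHDAC1 against empty/siGFP.

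**Figure D2:**
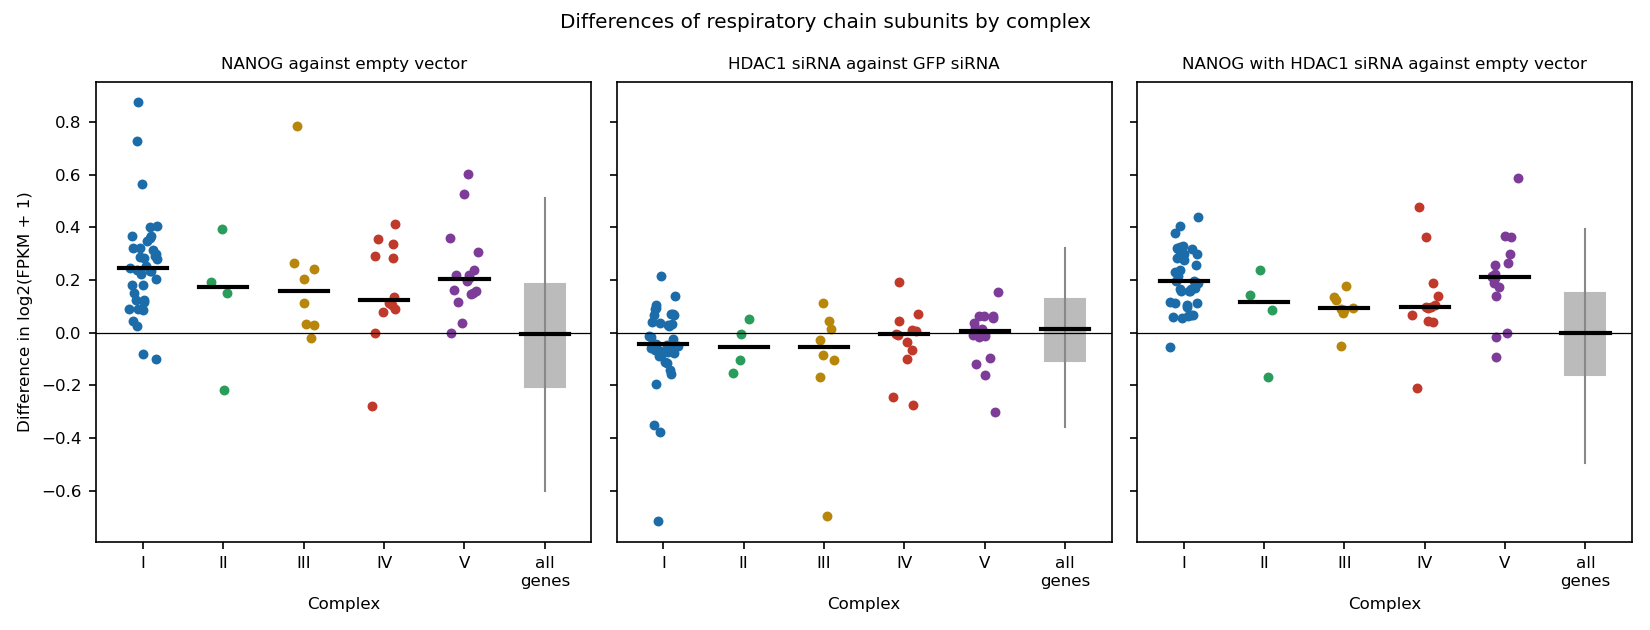
Difference in log2(FPKM + 1) for each member by complex, 1 panel per comparison. Black bars are medians, and the grey box and line give the quartiles and the 5th to 95th percentiles of all 11398 genes. Most points lie above 0 in the left and right panels (70 of 77 in each), and they gather around 0 in the middle panel.

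Complex I, the NADH dehydrogenase, was higher in 35 of 37 members for NANOG/siGFP and in 36 of 37 for NANOG/siHDAC1, each against empty/siGFP, with medians of 0.25 and 0.19. Over all genes, 49.2% and 49.8% were higher, with medians of -0.0060 and -0.00087. The counts for parts of complexes given here and below are set against the same values. Most of the 7 core subunits carry the flavin or iron-sulfur clusters or bind coenzyme Q. All 7 were higher in both comparisons (medians 0.29 and 0.20). NDUFS8, a core iron-sulfur subunit, was at 143 FPKM in NANOG/siHDAC1, 148 FPKM in NANOG/siGFP and 115 FPKM in empty/siGFP cells. NDUFV1, which binds the flavin and NADH, was at 110.0 FPKM in NANOG/siHDAC1, 114 FPKM in NANOG/siGFP and 95.8 FPKM in empty/siGFP cells. NDUFS7, next to the coenzyme Q site, was at 37.4 FPKM in NANOG/siHDAC1, 35.0 FPKM in NANOG/siGFP and 27.3 FPKM in empty/siGFP cells, with a difference of 0.35 for NANOG/siGFP and 0.44 for NANOG/siHDAC1 against empty/siGFP. In these 3 subunits both NANOG libraries lay above the empty/siGFP library. NDUFS1, the largest core subunit, was at 30.9 FPKM in NANOG/siHDAC1, 32.0 FPKM in NANOG/siGFP and 29.4 FPKM in empty/siGFP cells, a smaller gap in the same direction.

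Accessory subunits of complex I behaved alike. The 13 NDUFA members were higher in 12 cases for NANOG/siGFP and 13 for NANOG/siHDAC1 (medians 0.22 and 0.16), and the 13 NDUFB and NDUFC members in 12 cases each (medians 0.24 and 0.24). NDUFA3 was at 154 FPKM in NANOG/siHDAC1, 145 FPKM in NANOG/siGFP and 116 FPKM in empty/siGFP cells. NDUFA4, now assigned to complex IV and renamed COXFA4 in RefSeq, was at 68.5 FPKM in NANOG/siHDAC1, 69.6 FPKM in NANOG/siGFP and 55.4 FPKM in empty/siGFP cells. Both were higher in both NANOG libraries. NDUFC1 and NDUFA1 were the 2 complex I members below empty/siGFP in the NANOG/siGFP library. NDUFC1 was at 66.9 FPKM in NANOG/siHDAC1, 57.5 FPKM in NANOG/siGFP and 61.8 FPKM in empty/siGFP cells, with the largest positive difference of all members for HDAC1 siRNA on the FPKM scale (0.22), and NDUFA1 at 202 FPKM in NANOG/siHDAC1, 184 FPKM in NANOG/siGFP and 194 FPKM in empty/siGFP cells (0.14). NDUFB8, at 152 FPKM in NANOG/siHDAC1, 168 FPKM in NANOG/siGFP and 158 FPKM in empty/siGFP cells, was the 1 complex I member that was lower in NANOG/siHDAC1 than in empty/siGFP cells. NDUFA13, an accessory subunit also known as GRIM-19, was at 131 FPKM in NANOG/siHDAC1, 122 FPKM in NANOG/siGFP and 115 FPKM in empty/siGFP cells, higher in both NANOG libraries.

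The 3 members of complex I with the largest differences between NANOG/siGFP and empty/siGFP cells peaked in the NANOG/siGFP library. NDUFA9, an accessory subunit near the coenzyme Q site, was at 30.6 FPKM in NANOG/siHDAC1, 50.8 FPKM in NANOG/siGFP and 27.3 FPKM in empty/siGFP cells. Its difference was 0.87 for NANOG/siGFP against empty/siGFP, -0.71 for HDAC1 siRNA and 0.16 for NANOG/siHDAC1 against empty/siGFP. NDUFB10, of the membrane arm, was at 78.9 FPKM in NANOG/siHDAC1, 101 FPKM in NANOG/siGFP and 60.5 FPKM in empty/siGFP cells, with differences of 0.73, -0.35 and 0.38 in the same order. Its neighbour in the membrane arm, NDUFB11, was at 73.8 FPKM in NANOG/siHDAC1, 96.1 FPKM in NANOG/siGFP and 64.6 FPKM in empty/siGFP cells, with differences of 0.57, -0.38 and 0.19. In NANOG/siHDAC1 cells NDUFA9 thus stood above its empty/siGFP level by 0.16, close to the median of all members in that comparison (0.17). NDUFB10 stood further above its own, by 0.38. Together with UQCRB and COX7A2, these made 5 members (6.49%) at least 1.2-fold above both other libraries in NANOG/siGFP cells, close to the 5.89% of all genes that did so. HDAC1 was also highest in NANOG/siGFP cells, as given above, and its part in these values was not tested.

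**Figure D3:**
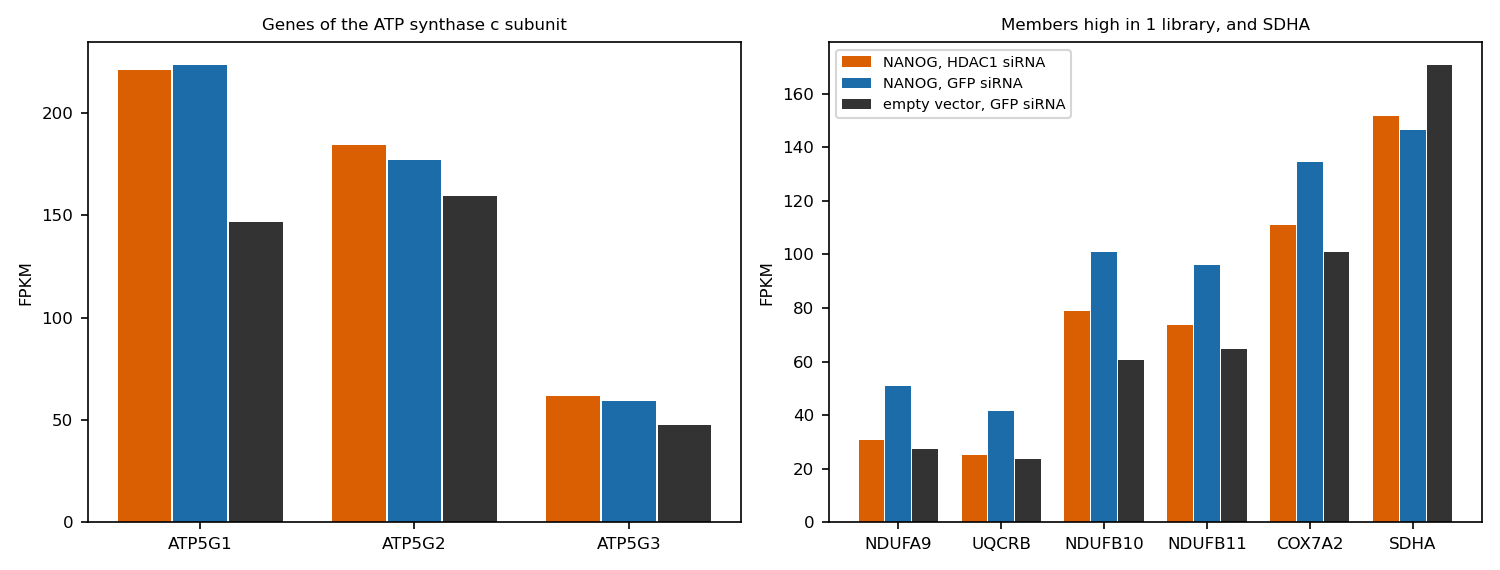
FPKM in the 3 libraries for the 3 genes of the ATP synthase c subunit (left) and for 6 other members (right); each bar is 1 library. ATP5G1 is higher in both NANOG libraries than in empty/siGFP cells. NDUFA9 and UQCRB are high in NANOG/siGFP alone, and SDHA is highest in empty/siGFP cells.

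Complex II, succinate dehydrogenase, is also an enzyme of the TCA cycle and has only nuclear-encoded subunits. Its members did not move as 1 group. The flavoprotein SDHA was at 152 FPKM in NANOG/siHDAC1, 147 FPKM in NANOG/siGFP and 171 FPKM in empty/siGFP cells, a difference of -0.22 for NANOG/siGFP and -0.17 for NANOG/siHDAC1 against empty/siGFP. The iron-sulfur subunit SDHB was at 90.8 FPKM in NANOG/siHDAC1, 101 FPKM in NANOG/siGFP and 76.8 FPKM in empty/siGFP cells, with differences of 0.39 for NANOG/siGFP and 0.24 for NANOG/siHDAC1 against empty/siGFP. SDHA was therefore lower and SDHB higher in both NANOG libraries. Of the membrane anchors, SDHD was at 52.3 FPKM in NANOG/siHDAC1, 52.5 FPKM in NANOG/siGFP and 47.2 FPKM in empty/siGFP cells and SDHC at 11.6 FPKM in NANOG/siHDAC1, 12.5 FPKM in NANOG/siGFP and 10.9 FPKM in empty/siGFP cells. Both were above empty/siGFP in both NANOG libraries. Annotated pseudogenes named after SDHA number 3, so fragments may be shared with copies.

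Complex III, the cytochrome bc1 complex, was higher in 7 of 8 expressed members in each NANOG library (medians 0.16 and 0.092). Of all genes, 49.2% were higher for NANOG/siGFP and 49.8% for NANOG/siHDAC1. UQCRC1, a core protein, was at 115 FPKM in NANOG/siHDAC1, 124 FPKM in NANOG/siGFP and 105 FPKM in empty/siGFP cells, and UQCRFS1, the Rieske iron-sulfur protein, at 157 FPKM in NANOG/siHDAC1, 160.2 FPKM in NANOG/siGFP and 139 FPKM in empty/siGFP cells. These were modestly above empty/siGFP in both NANOG libraries. UQCRB, which takes part in coenzyme Q binding, was at 25.3 FPKM in NANOG/siHDAC1, 41.7 FPKM in NANOG/siGFP and 23.8 FPKM in empty/siGFP cells, with differences of 0.78 for NANOG/siGFP against empty/siGFP, -0.70 for HDAC1 siRNA and 0.087 for NANOG/siHDAC1 against empty/siGFP. The hinge protein UQCRH, the most abundant of the complex, was at 284 FPKM in NANOG/siHDAC1, 263 FPKM in NANOG/siGFP and 267 FPKM in empty/siGFP cells. UQCR11 was at 38.4 FPKM in NANOG/siHDAC1, 40.8 FPKM in NANOG/siGFP and 39.9 FPKM in empty/siGFP cells. UQCRH was lowest in NANOG/siGFP cells and UQCR11 in NANOG/siHDAC1 cells, both by small amounts. UQCRHL, an intronless copy of UQCRH, stayed below the filter at 0.442 FPKM in NANOG/siHDAC1, 0.706 FPKM in NANOG/siGFP and 0.270 FPKM in empty/siGFP cells, as did the pseudogene UQCRBP1.

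Complex IV, cytochrome c oxidase, has tissue-specific isoforms of several subunits, and CaSki cells had almost only the widely expressed ones. COX4I1 was at 409 FPKM in NANOG/siHDAC1, 484 FPKM in NANOG/siGFP and 383 FPKM in empty/siGFP cells, and the COX4I2 isoform, linked to low oxygen, was listed at 0 in all 3 libraries. The liver-type COX6A1 made up 99.6% of the FPKM of the COX6A pair in NANOG/siHDAC1, 99.7% in NANOG/siGFP and 99.8% in empty/siGFP cells. Its heart and muscle isoform COX6A2 was at 1.90 FPKM in NANOG/siHDAC1, 1.54 FPKM in NANOG/siGFP and 1.08 FPKM in empty/siGFP cells. COX6B1 was at 251 FPKM in NANOG/siHDAC1, 269 FPKM in NANOG/siGFP and 219.9 FPKM in empty/siGFP cells, and the testis isoform COX6B2 at 1.38 FPKM in NANOG/siHDAC1, 1.26 FPKM in NANOG/siGFP and 1.75 FPKM in empty/siGFP cells. COX7A2 was at 111 FPKM in NANOG/siHDAC1, 134 FPKM in NANOG/siGFP and 101 FPKM in empty/siGFP cells, while the muscle isoform COX7A1 and the isoform COX7B2 reached at most 0.0559 and 0.0871 FPKM, both in NANOG/siGFP cells. COX8C was listed at 0 in all 3 libraries. The tissue-restricted isoforms were thus at 0 or under 2 FPKM in all 3 libraries.

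Expressed members of complex IV were higher in 10 of 12 cases for NANOG/siGFP and 11 of 12 for NANOG/siHDAC1 against empty/siGFP, with medians of 0.12 and 0.097. The shares of all genes that were higher were 49.2% and 49.8%. COX8A was at 463 FPKM in NANOG/siHDAC1, 461 FPKM in NANOG/siGFP and 360.2 FPKM in empty/siGFP cells, with differences of 0.35 for NANOG/siGFP and 0.36 for NANOG/siHDAC1 against empty/siGFP, and was higher in both NANOG libraries. COX7C was at 490.4 FPKM in NANOG/siHDAC1, 503 FPKM in NANOG/siGFP and 477 FPKM in empty/siGFP cells, and COX6A1 at 481 FPKM in NANOG/siHDAC1, 466 FPKM in NANOG/siGFP and 466 FPKM in empty/siGFP cells. COX7C and COX6A1 were nearly level across the libraries. COX6B2 had the lowest difference of all members for NANOG/siGFP (-0.28) and for NANOG/siHDAC1 (-0.21) against empty/siGFP, and COX6A2 the second highest for NANOG/siHDAC1 (0.48), but both sit at 1 to 2 FPKM, where the log2(FPKM + 1) scale understates a change.

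Complex V, the ATP synthase, was higher in 15 of 16 expressed members for NANOG/siGFP and 13 of 16 for NANOG/siHDAC1 against empty/siGFP (medians 0.20 and 0.21). Among all genes, 49.2% and 49.8% were higher. The catalytic head was represented by 5 genes, higher in 5 and 4 cases. ATP5B, the catalytic beta subunit, was at 418 FPKM in NANOG/siHDAC1, 419 FPKM in NANOG/siGFP and 360.1 FPKM in empty/siGFP cells, and the alpha subunit gene ATP5A1 at 135 FPKM in NANOG/siHDAC1, 144 FPKM in NANOG/siGFP and 112 FPKM in empty/siGFP cells. Both were above empty/siGFP in both NANOG libraries. ATP5E, the epsilon subunit gene and the most abundant member of all, was at 808 FPKM in NANOG/siHDAC1, 877 FPKM in NANOG/siGFP and 809 FPKM in empty/siGFP cells, with a difference of -0.0014 for NANOG/siHDAC1 against empty/siGFP.

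The c-ring, which turns as protons pass, is made from the same mature protein encoded by ATP5G1, ATP5G2 and ATP5G3, whose targeting peptides differ. ATP5G1 was at 221 FPKM in NANOG/siHDAC1, 223 FPKM in NANOG/siGFP and 147 FPKM in empty/siGFP cells, with differences of 0.60 for NANOG/siGFP and 0.59 for NANOG/siHDAC1 against empty/siGFP and -0.014 for HDAC1 siRNA. ATP5G2 was at 184 FPKM in NANOG/siHDAC1, 177 FPKM in NANOG/siGFP and 159.6 FPKM in empty/siGFP cells, and ATP5G3 at 61.8 FPKM in NANOG/siHDAC1, 59.2 FPKM in NANOG/siGFP and 47.6 FPKM in empty/siGFP cells. ATP5G1 thus held 47.3% of the FPKM of the 3 genes in NANOG/siHDAC1, 48.6% in NANOG/siGFP and 41.5% in empty/siGFP cells, and ATP5G2 held 39.4% in NANOG/siHDAC1, 38.6% in NANOG/siGFP and 45.1% in empty/siGFP cells. The order of the pair differed, with ATP5G1 ahead in both NANOG libraries and ATP5G2 ahead in empty/siGFP cells. Pseudogenes named after ATP5G1 or its current symbol number 7, and those after ATP5G2 number 3, so fragments of these genes may be shared with copies.

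In the stalk and membrane parts of complex V, 3 of 4 peripheral stalk genes and 3 of 3 genes of the e, f and g subunits were higher in each NANOG library than in empty/siGFP cells. ATP5I, the e subunit gene, was at 219 FPKM in NANOG/siHDAC1, 245 FPKM in NANOG/siGFP and 170.0 FPKM in empty/siGFP cells, with differences of 0.53 for NANOG/siGFP and 0.36 for NANOG/siHDAC1 against empty/siGFP. ATP5O, which encodes the stalk protein OSCP, was level, at 146 FPKM in NANOG/siHDAC1, 148 FPKM in NANOG/siGFP and 148 FPKM in empty/siGFP cells. ATP5J2, the f subunit gene, was at 449 FPKM in NANOG/siHDAC1, 404 FPKM in NANOG/siGFP and 394 FPKM in empty/siGFP cells and had a difference of 0.15 for HDAC1 siRNA. ATP5S, a coupling factor gene now named DMAC2L, was the lowest expressed of the complex V members past the filter, at 6.07 FPKM in NANOG/siHDAC1, 7.70 FPKM in NANOG/siGFP and 6.53 FPKM in empty/siGFP cells, and was the 1 member of complex V at least 1.2-fold lower with HDAC1 siRNA (-0.30). ATP5L2 was listed at 0 in all 3 libraries.

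Short genes tended to be higher than long ones in both NANOG libraries, and most members are short. Across 11037 genes with a transcript length (96.8%), Spearman's rho of length with the difference was -0.19 for NANOG/siGFP and -0.21 for NANOG/siHDAC1 against empty/siGFP, over genes of the same 3 libraries. Other genes under 1000 bases had a median of 0.065 for NANOG/siGFP against empty/siGFP (58.9% of 686 higher), and the 43 members under 1000 bases one of 0.23 (88.4% higher). Members of 1000 bases or more had a median of 0.20 (32 of 34 higher), against -0.015 for the 10274 other genes of that length (48.3% higher). For NANOG/siHDAC1 against empty/siGFP, the medians were 0.19 for short members and 0.072 for other short genes, and 0.16 for longer members and -0.0062 for other longer genes. After the median of genes of like length had been removed in 20 bins, 62 of 77 members were higher for NANOG/siGFP, with a median of 0.18, and 64 of 77 for NANOG/siHDAC1, with a median of 0.11. Most members were thus higher at either length, with smaller medians once length was taken into account. The lengths are those of GENCODE transcripts, and those behind the deposited FPKM are not given. Some genes may therefore stand in the wrong length class.

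**Figure D4:**
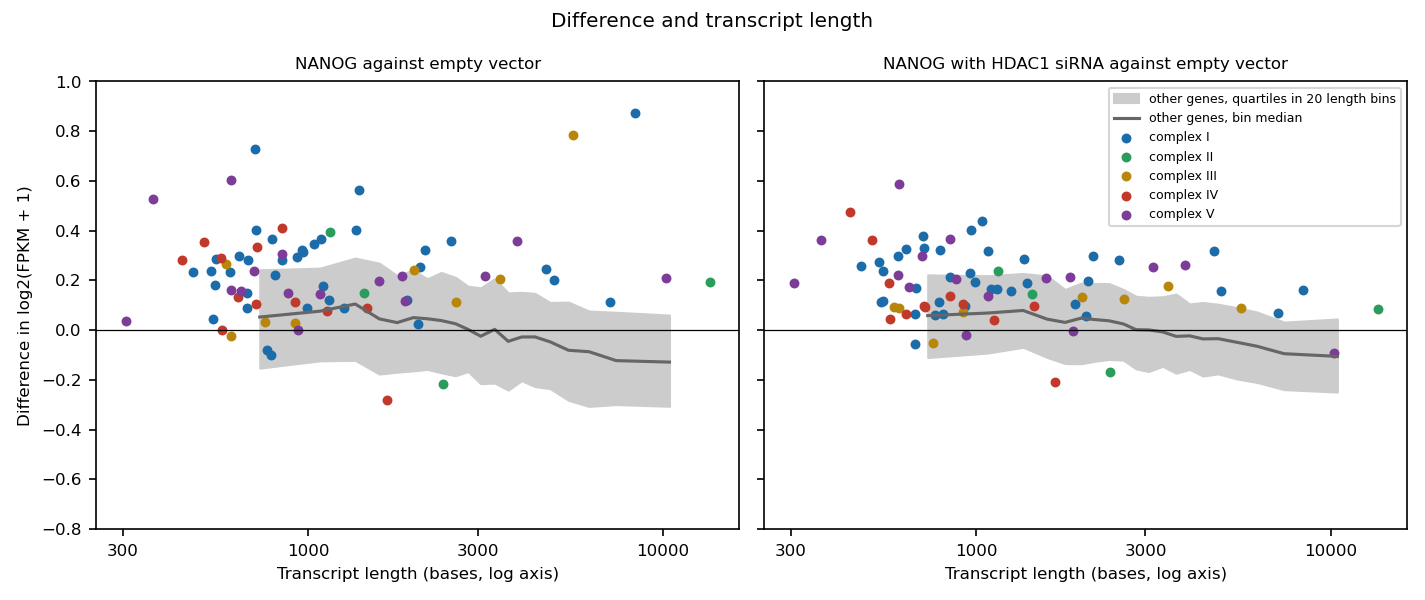
Difference in log2(FPKM + 1) against transcript length (log axis) for members, coloured by complex, over the quartiles and median of other genes in 20 bins of length. The grey median slopes from slightly above 0 for short genes to below 0 for long ones, and most members lie above it at all lengths.

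Many members have processed copies in the genome, which could draw fragments from the parent gene. Annotated pseudogenes carry the name of 44 of the 77 expressed members, up to 17 for COX6C, at 178 FPKM in NANOG/siHDAC1, 187 FPKM in NANOG/siGFP and 170.1 FPKM in empty/siGFP cells. The 33 members without one were higher in 29 of 33 cases for NANOG/siGFP against empty/siGFP (median 0.24), and the 44 with one in 41 of 44 (median 0.19). The direction was shared by both sets, beside 49.2% of all genes higher, but the larger differences were not. At least 1.5-fold higher for NANOG/siGFP were 4 of the 44 (9.09%) and 0 of the 33, against 3.47% of all genes. Likewise the 2 members past 1.5-fold with HDAC1 siRNA, NDUFA9 and UQCRB, and the 1 for NANOG/siHDAC1 against empty/siGFP had such pseudogenes. Whether copies bear on these values was not tested.

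Genes that build or feed the respiratory chain were taken from lists written down with earlier results of these data known. Assembly factors, which put the complexes together but are not part of them, were higher in 44 of 50 cases for NANOG/siGFP and 41 of 50 for NANOG/siHDAC1 against empty/siGFP (medians 0.13 and 0.11). The share of all genes that was higher, against which this and the next lists are set, was 49.2% for NANOG/siGFP and 49.8% for NANOG/siHDAC1. NDUFAF4, a complex I assembly factor, was at 7.55 FPKM in NANOG/siHDAC1, 6.92 FPKM in NANOG/siGFP and 4.71 FPKM in empty/siGFP cells, and the complex III factor gene MNF1 (UQCC2) at 46.5 FPKM in NANOG/siHDAC1, 47.1 FPKM in NANOG/siGFP and 34.1 FPKM in empty/siGFP cells. Both were higher in both NANOG libraries. TACO1, needed to translate a mitochondrial COX subunit, was at 13.3 FPKM in NANOG/siHDAC1, 20.3 FPKM in NANOG/siGFP and 11.9 FPKM in empty/siGFP cells, high in NANOG/siGFP alone. SCO2, a copper chaperone of complex IV and a p53 target, was at 26.3 FPKM in NANOG/siHDAC1, 20.7 FPKM in NANOG/siGFP and 25.3 FPKM in empty/siGFP cells, lowest in NANOG/siGFP cells.

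The TCA cycle list was higher in 12 of 14 cases for NANOG/siGFP and 9 of 14 for NANOG/siHDAC1 against empty/siGFP (medians 0.21 and 0.085), beside 49.2% and 49.8% of all genes. IDH3A, of the NAD-dependent isocitrate dehydrogenase, was at 33.5 FPKM in NANOG/siHDAC1, 33.9 FPKM in NANOG/siGFP and 26.5 FPKM in empty/siGFP cells, and citrate synthase (CS) at 88.8 FPKM in NANOG/siHDAC1, 88.1 FPKM in NANOG/siGFP and 70.6 FPKM in empty/siGFP cells. Electron carriers and coenzyme Q synthesis were higher in 14 of 18 and 15 of 18 cases (medians 0.13 and 0.21), beside the same shares of all genes. Cytochrome c (CYCS) was at 57.6 FPKM in NANOG/siHDAC1, 56.7 FPKM in NANOG/siGFP and 49.2 FPKM in empty/siGFP cells, the coenzyme Q methyltransferase COQ3 at 11.4 FPKM in NANOG/siHDAC1, 11.1 FPKM in NANOG/siGFP and 7.93 FPKM in empty/siGFP cells, and ETFDH, which passes electrons from fatty acid oxidation to coenzyme Q, at 3.81 FPKM in NANOG/siHDAC1, 2.81 FPKM in NANOG/siGFP and 4.75 FPKM in empty/siGFP cells. CYCS and COQ3 were higher in both NANOG libraries than in empty/siGFP cells, and ETFDH was lower in both. Subunits and associated proteins whose symbols the patterns miss were higher in 7 of 8 cases in each NANOG library (medians 0.084 and 0.19), among them NDUFAB1, the mitochondrial acyl carrier protein and a complex I subunit, at 72.1 FPKM in NANOG/siHDAC1, 73.1 FPKM in NANOG/siGFP and 60.01 FPKM in empty/siGFP cells.

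Regulators of mitochondrial biogenesis were higher in 13 of 17 cases for NANOG/siGFP and 12 of 17 for NANOG/siHDAC1 against empty/siGFP, with medians of 0.043 and 0.075, beside 49.2% and 49.8% of all genes. NRF1 was at 5.57 FPKM in NANOG/siHDAC1, 6.30 FPKM in NANOG/siGFP and 6.11 FPKM in empty/siGFP cells, GABPA at 5.98 FPKM in NANOG/siHDAC1, 5.59 FPKM in NANOG/siGFP and 6.13 FPKM in empty/siGFP cells and YY1 at 69.5 FPKM in NANOG/siHDAC1, 62.2 FPKM in NANOG/siGFP and 68.3 FPKM in empty/siGFP cells. For NANOG/siGFP against empty/siGFP these 3 factors had differences of 0.038, -0.11 and -0.13. For NANOG/siHDAC1 against empty/siGFP they had -0.11, -0.032 and 0.024, so that NRF1 and YY1 changed sign. PPARGC1A, the coactivator known for raising respiratory genes in muscle and brown fat, was listed at 0 or near it, at most 0.0055 FPKM. TFAM, which packages and transcribes mitochondrial DNA, was at 27.2 FPKM in NANOG/siHDAC1, 46.1 FPKM in NANOG/siGFP and 26.8 FPKM in empty/siGFP cells, so that it was high in NANOG/siGFP alone (0.76 against empty/siGFP, -0.74 with HDAC1 siRNA). GABPB1, the partner subunit of GABPA, was at 27.7 FPKM in NANOG/siHDAC1, 20.5 FPKM in NANOG/siGFP and 20.4 FPKM in empty/siGFP cells, highest with HDAC1 siRNA (0.42).

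Genes that steer pyruvate and those tied to low oxygen split, with 5 of 16 at least 1.5-fold lower in each NANOG library than in empty/siGFP cells, beside 5.25% of all genes for NANOG/siGFP and 3.44% for NANOG/siHDAC1. BNIP3, BNIP3L, PDK1 and PDP1 were among them in both, LONP1 in NANOG/siGFP and PDK3 in NANOG/siHDAC1 cells. PDK1, which blocks pyruvate dehydrogenase, was at 11.7 FPKM in NANOG/siHDAC1, 11.3 FPKM in NANOG/siGFP and 21.5 FPKM in empty/siGFP cells, a difference of -0.87 for NANOG/siGFP and -0.82 for NANOG/siHDAC1 against empty/siGFP. NDUFA4L2, a relative of NDUFA4 induced by low oxygen, stayed below the filter at 0.560 FPKM in NANOG/siHDAC1, 0.527 FPKM in NANOG/siGFP and 1.64 FPKM in empty/siGFP cells. LONP1, a mitochondrial protease, was at 47.1 FPKM in NANOG/siHDAC1, 39.4 FPKM in NANOG/siGFP and 68.9 FPKM in empty/siGFP cells, and the mitophagy receptor gene BNIP3L at 35.7 FPKM in NANOG/siHDAC1, 27.2 FPKM in NANOG/siGFP and 87.8 FPKM in empty/siGFP cells. PDK1, LONP1 and BNIP3L were thus highest in empty/siGFP cells, the reverse of most subunits, and whether they bear on the subunits was not tested. The list as a whole was higher in 10 of 16 and 6 of 16 cases (medians 0.072 and -0.079), beside 49.2% and 49.8% of all genes. In the pyruvate dehydrogenase complex, PDHB was at 25.7 FPKM in NANOG/siHDAC1, 40.0 FPKM in NANOG/siGFP and 27.7 FPKM in empty/siGFP cells and PDHX at 14.5 FPKM in NANOG/siHDAC1, 20.9 FPKM in NANOG/siGFP and 14.4 FPKM in empty/siGFP cells, both high in NANOG/siGFP alone.

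**Figure D5:**
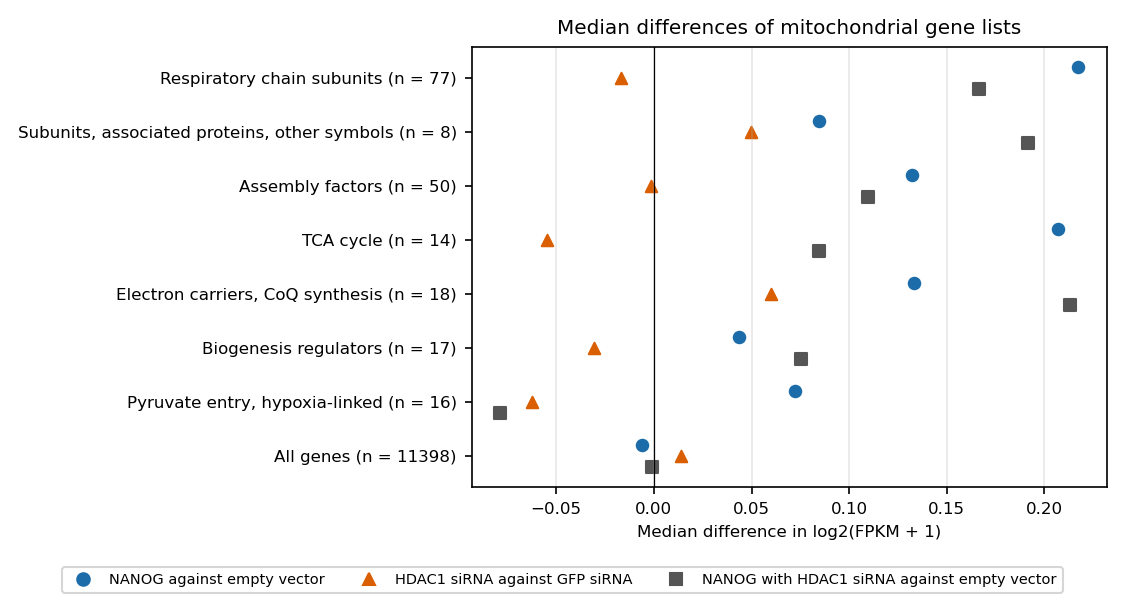
Median difference in log2(FPKM + 1) of each gene list in the 3 comparisons, with the number of genes past the filter in brackets. Respiratory chain subunits, TCA cycle, assembly factors and electron carriers lie to the right of all genes in both comparisons with empty vector cells, with medians from 0.085 to 0.22. So do the subunits and associated proteins with other symbols and the biogenesis regulators, with medians from 0.043 to 0.19.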

How the data were processed

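Per the labels' protocols, 2 ug of Trizol-extracted total RNA per library went into a stranded total RNA kit (TruSeq). The authors deposited 1 table of FPKM per gene symbol and library, made with TopHat2 and Cufflinks on hg19, per the submitters' processing notes. The sources used here give no versions, annotation, strand setting, rule for multiply mapped reads or fragment totals.

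Small RNA symbols (1641 of 23277) were left out of the genes compared, though the TPM alternative summed over them unless said otherwise, and the 11398 genes averaging 1 FPKM or more across libraries were kept. Differences are log2(FPKM + 1), which understates changes of low genes. They were counted at 1.5-fold and 1.2-fold. No test was possible with 1 library per group. Members and lists were chosen with earlier results of these data known, and COX4NB was removed from a list after its values were seen because it encodes no subunit.

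Genes named were the 6 highest and 6 lowest members per comparison, members past 1.5-fold, the highest and lowest of each complex, the isoform sets and up to 3 genes per other list. The other genes and members named were chosen with their values known. Transcript lengths and pseudogene names came from GENCODE release 29 and promoters from RefSeq (GRCh38.p14). That build differs from hg19, so no other coordinates are given. Alternatives covered pseudocount, filter, scaling, length, summary, genes at 0 and fold. A median counted as moved past 0.1 (log2) and a count past 1.5 times. Calculations used scipy 1.17.1, pandas 2.3.3 and numpy 2.4.6 under Python 3.11.15, with plots from matplotlib 3.10.9. Of the steps, only the count past 1.5-fold was tried on simulated data, with planted changes well past that fold. That trial says nothing of smaller differences. Values of 1 member and 1 marker gene are counted in the totals but not reported here.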

Additional observations from a re-analysis of the deposited data

How the results depend on the processing

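For NANOG/siGFP against empty/siGFP, the median of the members ranged from 0.17 to 0.25 over the alternatives run, with no reversal. The share of members higher ranged from 80.5% to 94.8% there, and from 83.1% to 97.4% for NANOG/siHDAC1 against empty/siGFP. These are shares because the number of members was 84 without a filter, 75 with a filter at 5 FPKM and 77 otherwise. For NANOG/siHDAC1 against empty/siGFP the median ranged from 0.11 to 0.30, the highest under TPM, beside 0.13 over all genes. For HDAC1 siRNA against GFP siRNA in NANOG cells, TPM reversed the median to 0.17 (-0.017 as reported) and gave 69 of 77 members higher in place of 31. TPM without small RNA symbols gave 0.038 and 48. Both rescalings move all genes by a like amount. TPM without small RNA symbols and the counts of members higher were added after seeing the data. Past the fold, 1.2-fold gave 30 members for NANOG/siGFP against empty/siGFP, 6 for HDAC1 siRNA and 20 for NANOG/siHDAC1 against empty/siGFP, and 2-fold gave 0 in each. Past 1.5-fold, HDAC1 siRNA had 0 under TPM in place of 2. NANOG/siHDAC1 against empty/siGFP had 2 under TPM with or without small RNA symbols, 2 with a pseudocount of 0.1 FPKM and 0 with length-bin medians subtracted, in place of 1. No paired analysis was possible because each group has 1 library. Without fragment totals, the counting error of low members such as COX6A2 and COX6B2 is unknown, and without replicates a feature of 1 library cannot be told apart from its group.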
